A study of Homo sapiens with 12 samples.

Results

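The genes described here are 32 transcriptional targets of the tumour suppressor p53, followed in diffuse large B-cell lymphoma cells after knock-down of BCL6. A gene was taken up where a probe set of the array is annotated with that gene's symbol and no other, and its brightest such probe set over all 12 arrays stood for it. This held for 29 of the 32 genes, among 19775 genes with a single-symbol probe set. BBC3, BTG2 and FDXR were not analysed here. The members were listed by name and not by a rule on their values, but with earlier results of these data known.

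Both lines, OCI-Ly7 and Pfeiffer, are human germinal centre B-cell type lymphoma lines, grown in IMDM medium with serum. Each was transfected transiently with BCL6-specific siRNA or a control oligonucleotide without a target, and total RNA was taken after 48 h and hybridised to Affymetrix U133 Plus 2.0 arrays. There were 3 arrays in each of the 4 groups: OCI-Ly7 control, OCI-Ly7 BCL6 siRNA, Pfeiffer control and Pfeiffer BCL6 siRNA. The titles of the Pfeiffer controls read shRNA where their descriptions read siRNA, and which control that line received is not settled. The labels state no treatment that damages DNA and do not name separate cultures behind the 3 arrays of each group. The p-values therefore measure only the spread between these arrays, which may be technical.

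p53 is a transcription factor that is held at a low level by the ubiquitin ligase MDM2 and is stabilised when DNA is damaged. It then activates genes that repair DNA, stop the cell cycle, start apoptosis or lower metabolic stress, and MDM2 itself, which closes a feedback loop. BCL6, which represses transcription in the germinal centre, is known to dampen this response, in part by repressing ATR, CHEK1 and CDKN1A, while these cells rearrange and mutate their immunoglobulin genes.

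All levels are given as log2(signal + 16) and all changes as BCL6 siRNA minus control on that scale, which understates the change of dim genes. Folds and percentages of control are ratios of signal + 16, not of the signal itself. The siRNA lowered BCL6 by 0.42 ± 0.08 (SE) in OCI-Ly7 and by 0.96 ± 0.08 in Pfeiffer (limma, adjusted p = 0.00731 and 5.31e-07, n = 3 arrays a group). All 5 B cell markers analysed here were above the lowest level kept by the filter on dim genes (7.91, a signal of 223.9) in both lines, and none of the 6 T cell or 3 myeloid markers was. The summed signal of the B cell markers went from 49486 to 51685 on OCI-Ly7 control arrays to 59313 to 60434 on siRNA arrays. In Pfeiffer it went from 44015 to 44521 down to 29319 to 33356. The part of this shift in the changes below was not tested. Of the 4 fibroblast markers, 1 was above the filter's lowest level in the controls of each line. It was COL1A1, at 7.92 in OCI-Ly7 controls and 8.40 in Pfeiffer controls. Of the 4 epithelial markers, 2 were above that level in Pfeiffer controls and 0 in OCI-Ly7 controls. EPCAM, an epithelial adhesion molecule, stood at 14.1 in Pfeiffer controls and 5.00 in OCI-Ly7 controls.

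To show what regulatory sequence stands before genes of this group, the 250 bases upstream of the annotated start are printed for 4 of them, from RefSeq (GRCh38.p14), 5′ to 3′ on the strand of the gene. DDB2 and POLH are shown as examples of the genes called in a single line, and others such as ZMAT3 are not printed. AEN and RPS27L are shown because they hold an exact match to the p53 half-site consensus and were bright enough to be tested. Capitals mark that match.
DDB2 (chr11:47214204-47214453, plus strand): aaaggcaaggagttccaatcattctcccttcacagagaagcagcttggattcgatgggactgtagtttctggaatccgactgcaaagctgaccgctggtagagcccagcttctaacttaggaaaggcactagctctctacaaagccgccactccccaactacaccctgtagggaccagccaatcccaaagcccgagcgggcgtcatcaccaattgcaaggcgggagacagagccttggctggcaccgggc
POLH (chr6:43575935-43576184, plus strand): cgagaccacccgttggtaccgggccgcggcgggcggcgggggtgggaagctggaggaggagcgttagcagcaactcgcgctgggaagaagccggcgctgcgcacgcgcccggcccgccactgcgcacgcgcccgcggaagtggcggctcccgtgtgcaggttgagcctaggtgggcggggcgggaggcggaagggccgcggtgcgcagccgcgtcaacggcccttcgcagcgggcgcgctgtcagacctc
AEN (chr15:88621090-88621339, plus strand): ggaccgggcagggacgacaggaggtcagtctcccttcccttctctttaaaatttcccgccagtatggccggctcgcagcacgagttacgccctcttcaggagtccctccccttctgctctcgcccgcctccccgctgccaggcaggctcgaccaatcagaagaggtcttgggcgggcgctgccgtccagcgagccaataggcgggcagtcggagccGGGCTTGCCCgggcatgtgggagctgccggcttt
RPS27L (chr15:63157478-63157727, minus strand): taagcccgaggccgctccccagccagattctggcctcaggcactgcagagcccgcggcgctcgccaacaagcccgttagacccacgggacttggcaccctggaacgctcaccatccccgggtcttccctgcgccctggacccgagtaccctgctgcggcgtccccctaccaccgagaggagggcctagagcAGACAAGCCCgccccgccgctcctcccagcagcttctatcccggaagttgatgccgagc
The match in AEN, GGGCTTGCCC, begins 34 bases before the start, and the match in RPS27L, AGACAAGCCC, begins 59 bases before it. Windows of 300 bases, 250 before the start and 50 after, were at hand for 21 of the 29 genes. The half-site consensus, which reads the same on both strands, had a match in 3 of these 21 windows (14.3%: AEN, RPS27L and PLK2) and in 6.54% of 27303 promoter windows of all genes. A looser pattern, CNNG followed by NNNNNN and CNNG, which overlaps the half-site in part, was in 21 of the 21 and in 73.8% of all windows, without matching for base composition. The BCL6 core TTCNNNGAA, also the same on both strands, had a match in 0 of the 21 and in 7.88% of all windows. These counts describe the letters in the windows only, and many known p53 sites lie in introns, outside them.

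The baseline asks how strongly the genes were read in the control arrays of each line, which did not receive BCL6 siRNA. Of the 29 genes, 19 were at or above the filter's lowest level in the controls of both lines. EDA2R, PLK2, PLK3 and SPATA18 were dim in both. AEN, PERP, PHLDA3 and TP53I3 were dim only in OCI-Ly7 controls, and SESN1 and TP53INP1 only in Pfeiffer controls. The filter, which ranks each gene by its mean in the line where it is brighter, left 24 of the 29 genes to be tested. The other 5 were EDA2R, PLK2, PLK3, SPATA18 and PHLDA3, whose values are given without a test.

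**Figure D1:**
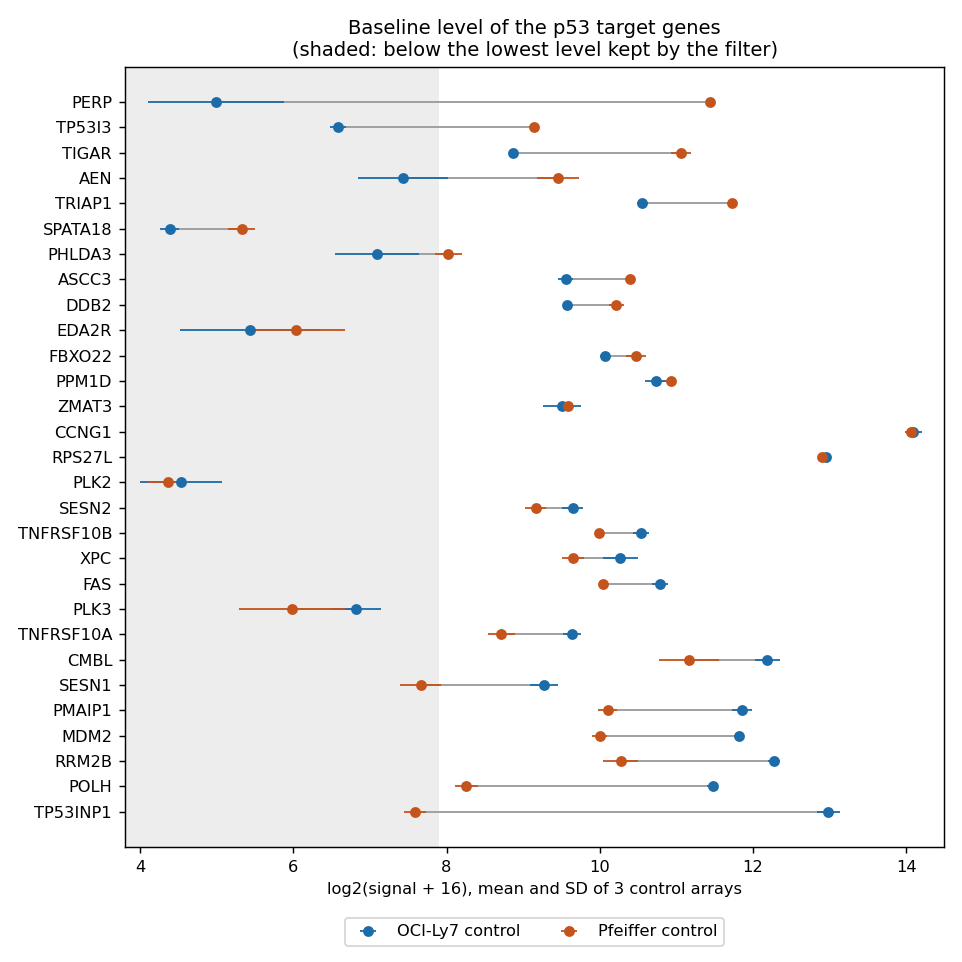
Mean level with SD of the 3 control arrays of each line for the 29 genes, as log2(signal + 16), ordered by the difference between the lines, with the range below the filter's lowest level shaded. PERP, at 11.44 in Pfeiffer and 4.99 in OCI-Ly7, and TP53INP1, at 7.59 and 12.99, lie at opposite ends, while CCNG1, RPS27L and ZMAT3 nearly coincide.

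Between the controls of the lines, 21 of the 24 tested genes differed (limma, adjusted p of 0.05): 9 were higher in Pfeiffer (37.5%, beside 42.5% of all genes) and 12 lower (50%, beside 37.1%). In either direction that is 87.5%, beside 79.6% of all 9888 genes tested, so the share was near that of genes at large. For 21 of the 24 the control arrays of the lines did not overlap, beside 82.4% of all genes, with 9 higher (beside 44%) and 12 lower (beside 38.4%). Of the 21, AEN, PERP, TP53I3, SESN1 and TP53INP1 were dim in 1 of the lines and passed the filter only through the line where they are high, so they had to differ. Their levels are given as a description, without a test, and the counts above show nothing particular to these genes. The lines differ in origin and carry 3 control arrays each, and the controls may have received different oligonucleotides.

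The 3 genes of the feedback loop did not share a direction. MDM2, the ligase that degrades p53, read 11.79, 11.89 and 11.77 in OCI-Ly7 controls and 10.11, 9.97 and 9.91 in Pfeiffer controls, with no overlap. The difference of -1.82 ± 0.07 (SE) means a signal 3.53-fold lower in Pfeiffer (limma, adjusted p = 1.56e-12). None of its 10 probe sets was higher in Pfeiffer, and the lowest difference was -2.91. PPM1D, a phosphatase that switches the DNA damage response off, was a little higher in Pfeiffer (0.20 ± 0.08, adjusted p = 0.0273). That call was lost without OCI-Ly7 control replicate 1 or 2 or Pfeiffer control replicate 1 or 2 (adjusted p = 0.0525 to 0.131), and when its probe sets were averaged. CCNG1, a cyclin that takes part in the same loop, read 14.05, 14.01 and 14.22 in OCI-Ly7 and 14.08, 14.00 and 14.11 in Pfeiffer, and the lines overlapped.

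Among the DNA repair genes, POLH, the polymerase that copies past ultraviolet lesions and also takes part in somatic hypermutation, was far lower in Pfeiffer. It read 11.51, 11.52 and 11.39 in OCI-Ly7 controls and 8.29, 8.10 and 8.40 in Pfeiffer controls, a difference of -3.21 ± 0.10 or 9.28-fold (limma, adjusted p = 2.18e-13). All 6 of its probe sets were lower in Pfeiffer, by -3.21 to -1.82. RRM2B, the ribonucleotide reductase subunit induced by p53, read 12.27, 12.35 and 12.20 against 10.28, 10.50 and 10.04 in Pfeiffer, also lower (95% confidence interval of the difference -2.22 to -1.78, adjusted p = 8.58e-11). XPC, which recognises damage in nucleotide excision repair, was lower by less (-0.62 ± 0.14, adjusted p = 0.000811). DDB2, which recognises ultraviolet damage, went the other way (0.64 ± 0.08, adjusted p = 2.74e-06). The repair genes thus did not share a direction between the lines.

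The genes of apoptosis differed in both directions. TP53INP1, a nuclear stress protein that promotes cell death and autophagy, read 12.92, 12.88 and 13.16 in OCI-Ly7 controls. In Pfeiffer controls it read 7.59, 7.74 and 7.44, below the filter's level, and the difference of the means was -5.39. Its other probe sets gave -3.69 and -0.24, and the mean of all 3 gave -3.11. PERP, a membrane protein of cell junctions that p53 induces in apoptosis, had the opposite pattern. It read 4.86, 4.17 and 5.94 in OCI-Ly7 controls, which is dim, and 11.43, 11.40 and 11.49 in Pfeiffer controls. The mean OCI-Ly7 signal of 15.7 is no larger than the constant added before the logarithm, so the size of the difference there is not defined well. A second PERP probe set was also bright only in Pfeiffer (10.05 against 5.26), and the 3 others were dim in both lines. EPCAM was also high only in Pfeiffer among these lines, as given above, and its part in the PERP difference was not tested.

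PMAIP1, the BH3-only protein NOXA, was 3.39-fold lower in Pfeiffer (-1.76 ± 0.11, adjusted p = 7.12e-10), with readings of 11.91, 11.72 and 11.96 against 10.20, 10.14 and 9.96. The death receptors FAS (-0.74 ± 0.08), TNFRSF10A (-0.92 ± 0.12) and TNFRSF10B (-0.55 ± 0.08) were all lower in Pfeiffer (limma, adjusted p up to 1.66e-05). AEN, a nuclease of apoptosis, read 9.72, 9.46 and 9.17 there and was dim in OCI-Ly7 at 7.77, 7.76 and 6.75. TRIAP1, a small protein that restrains apoptosis, was also higher (1.17 ± 0.06, adjusted p = 1.68e-10). PHLDA3, an inhibitor of AKT, averaged 7.09 in OCI-Ly7 and 8.02 in Pfeiffer and was not tested.

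Among genes of metabolism and redox control, TIGAR, a phosphatase that lowers glycolysis, read 8.91, 8.84 and 8.86 in OCI-Ly7 controls and 11.06, 11.19 and 10.93 in Pfeiffer controls. It was thus 4.56-fold higher in Pfeiffer (2.19 ± 0.09, adjusted p = 3.63e-12). TP53I3, a quinone oxidoreductase, averaged 9.14 there and a dim 6.59 in OCI-Ly7. The sestrins, which restrain mTORC1 signalling, were lower in Pfeiffer. SESN1 averaged 9.27 in OCI-Ly7 and a dim 7.67 in Pfeiffer, and SESN2 averaged 9.65 and 9.16 (interval of the difference -0.73 to -0.24; limma, adjusted p = 0.00117). ASCC3, a helicase of alkylation repair and ribosome rescue, was higher (0.83 ± 0.10, adjusted p = 1.71e-06), but its second probe set gave -0.58 and the mean of both 0.13, which was not called (adjusted p = 0.221). The hydrolase CMBL was lower with its brightest probe set (-1.02 ± 0.15, adjusted p = 1.83e-05), which can bind related transcripts. Without such probe sets it stood at 2.33, and with the mean of its probe sets at 0.51, so the direction for CMBL depends on the probe set. The value of 2.33 came from a probe set that was dim in both lines, at 5.45 in OCI-Ly7 controls and 7.78 in Pfeiffer controls. FBXO22, an F-box protein, was higher in Pfeiffer (0.40 ± 0.09, adjusted p = 0.000852).

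RPS27L, a ribosomal protein homologue, and ZMAT3, an RNA-binding zinc finger protein, were level between the lines. RPS27L averaged 12.95 ± 0.05 (SD, n = 3) in OCI-Ly7 controls and 12.90 ± 0.02 in Pfeiffer controls, and ZMAT3 9.50 ± 0.25 and 9.59 ± 0.01. With CCNG1 they are the 3 tested genes not called, with 95% confidence intervals of -0.16 to 0.04, -0.18 to 0.35 and, for CCNG1, -0.16 to 0.10. After quantile normalization CCNG1 (-0.19) and RPS27L (-0.20) were called lower in Pfeiffer (limma, adjusted p = 0.00303 and 0.000481).

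In OCI-Ly7, BCL6 siRNA changed 1 of the 24 tested genes. DDB2 rose by 0.56 ± 0.08 (SE), to 147% of control (limma, adjusted p = 0.00155), and the 95% confidence interval ran from 131% to 166%. Its controls read 9.61, 9.58 and 9.54, and its siRNA arrays 10.13, 10.22 and 10.06. Every siRNA array was above every control array, and the siRNA level came close to that of the Pfeiffer controls (10.22 ± 0.09, SD, n = 3). In such bulk samples, more cells with the transcript and more transcript per cell cannot be told apart. DDB2 has a single probe set, so a second reading of it was not at hand. Its call held in all 22 alternatives, with adjusted p up to 0.0105. The share called higher was 4.17% of the tested genes, beside 1.69% of all genes, and 0% were called lower, beside 0.991%. In either direction 2.68% of all genes were called. With 24 genes, a share of that size is a single gene.

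**Figure D2:**
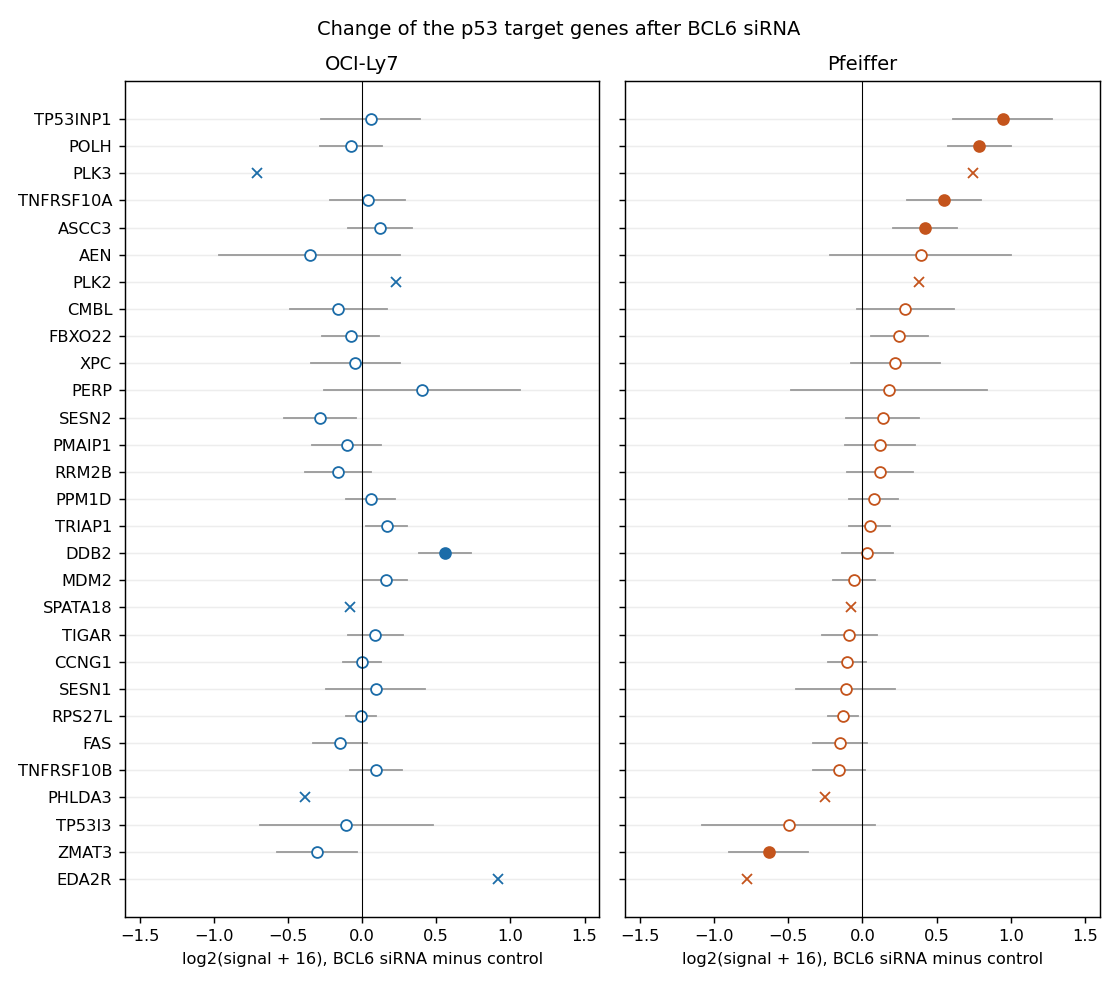
Change after BCL6 siRNA for the 29 genes in OCI-Ly7 and Pfeiffer, with lines for the 95% confidence interval. Filled points passed an adjusted p of 0.05 in limma, open points did not, and crosses were too dim to be tested. DDB2 is the filled point in OCI-Ly7, and TP53INP1, POLH, TNFRSF10A, ASCC3 and ZMAT3 are those in Pfeiffer.

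The other 23 tested genes were not called in OCI-Ly7, with changes from -0.35 (AEN) to 0.41 (PERP), of which 10 were positive and 13 negative. For 20 of the 23 the 95% confidence interval lay within a 1.5-fold change in either direction. AEN, PERP and TP53I3, which are dim in this line, had wider intervals. At an unadjusted p of 0.05, MDM2 (0.16, adjusted p = 0.269), TRIAP1 (0.17, adjusted p = 0.223), SESN2 (-0.28, adjusted p = 0.251) and ZMAT3 (-0.30, adjusted p = 0.258) passed along with DDB2. Arrays did not overlap for 4 genes (DDB2, MDM2 and TRIAP1 upward and SESN2 downward), which is 16.7% beside 22.9% of all genes (13.4% upward and 9.42% downward). The median over all 29 genes was -0.0091, beside 9.3e-05 over all 19775 genes.

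In Pfeiffer, where BCL6 fell further, 4 of the 24 tested genes rose and 1 fell. POLH, TP53INP1, TNFRSF10A and ASCC3 were higher with BCL6 siRNA and ZMAT3 was lower. The share called higher was 16.7%, beside 7.9% of all genes, and the share called lower 4.17%, beside 8.31%. In either direction 20.8% were called, beside 16.2% of all genes, so the count was not far from the background of this comparison.

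POLH rose by 0.79 ± 0.10 (SE), to 173% of control (95% interval 149% to 200%, limma, adjusted p = 6.46e-05). Its arrays read 8.29, 8.10 and 8.40 in controls and 9.04, 8.89 and 9.21 with siRNA, with no overlap. Even then the level stayed well under that of OCI-Ly7, which was 11.47 ± 0.07 in controls and 11.40 ± 0.07 with siRNA (SD, n = 3 each). All 6 POLH probe sets were higher with siRNA in Pfeiffer, by 0.34 to 1.41, and for 4 of them the arrays did not overlap. In OCI-Ly7 all 6 stood below 0, by -0.64 to -0.08, and for 3 of them the siRNA arrays lay below the controls, although the gene was not called there.

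TP53INP1 rose by 0.95 ± 0.16, to 193% of control (interval 153% to 243%, limma, adjusted p = 0.000723). Its arrays read 7.59, 7.74 and 7.44 in controls and 8.19, 8.56 and 8.85 with siRNA. The groups did not overlap, but the controls lay below the filter's level and the gene was tested because of its level in OCI-Ly7. The other 2 probe sets of TP53INP1 were dimmer still in Pfeiffer and gave 0.43 and 0.06. With the mean of all 3 the change was 0.48 and was not called (adjusted p = 0.164).

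TNFRSF10A, the death receptor DR4 for the ligand TRAIL, rose by 0.55 ± 0.12, to 147% (interval 123% to 174%; limma, adjusted p = 0.00501). It read 8.87, 8.76 and 8.52 in controls and 9.27, 9.15 and 9.38 with siRNA. For all 3 of its probe sets the siRNA arrays lay above the control arrays, by 0.41 to 0.75 on average. The second TRAIL receptor, TNFRSF10B, was not called. It stood at -0.16 ± 0.08 (adjusted p = 0.221), with readings of 10.01, 10.00 and 9.96 in controls and 9.82, 9.98 and 9.70 with siRNA. FAS stood at -0.15 ± 0.08 (adjusted p = 0.259), although its siRNA arrays (9.96, 9.76 and 9.94) lay below its control arrays (10.01, 10.01 and 10.10). In OCI-Ly7 the change of FAS was also -0.15 ± 0.08, and the arrays of this probe set overlapped. Its other probe sets gave -0.10, -0.24, -0.24 and -0.67 in OCI-Ly7, with the siRNA arrays below the controls for all but the last. In Pfeiffer they gave -0.37, -0.11, -0.02 and 0.60, with the siRNA arrays below the controls for those at -0.37 and -0.11. The probe set listed last was dim in both lines.

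**Figure D3:**
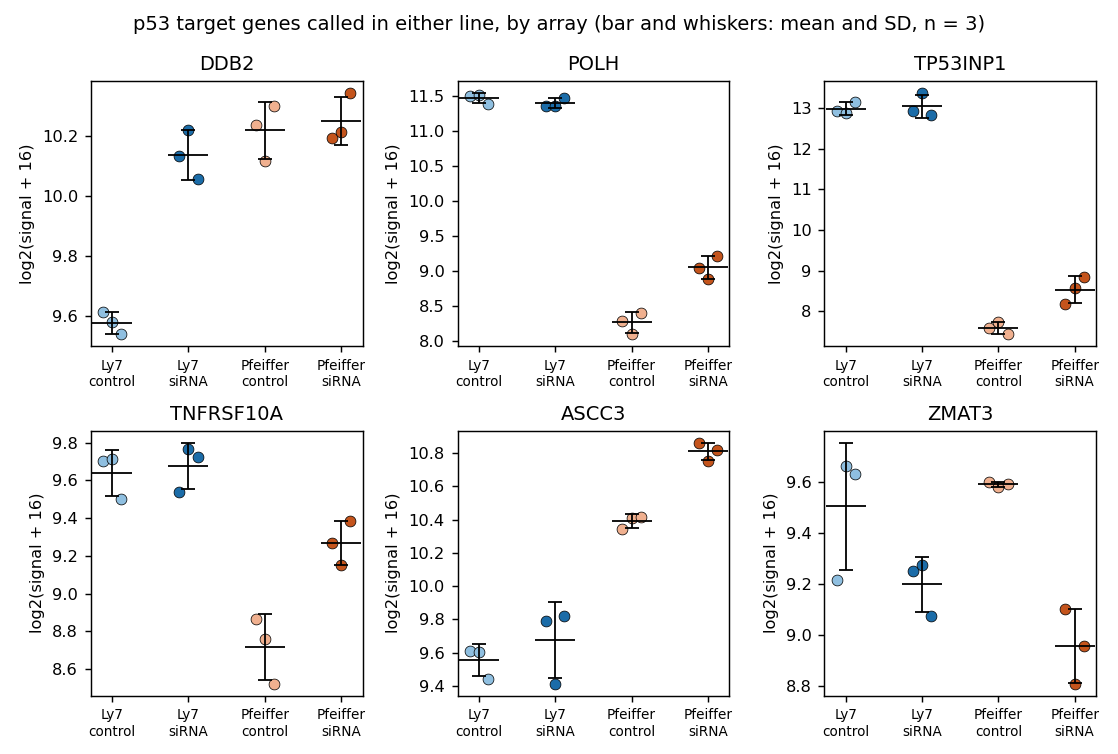
Level of the 6 called genes on each of the 12 arrays as log2(signal + 16), each panel with its own scale, with bars for the mean and whiskers for the SD of 3 arrays. DDB2 moves between the OCI-Ly7 groups, and the other 5 genes between the Pfeiffer groups, where their arrays do not overlap.

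ASCC3 rose by 0.42 ± 0.10, to 134% (interval 115% to 155%; limma, adjusted p = 0.0106). It read 10.34, 10.41 and 10.42 in controls and 10.86, 10.75 and 10.82 with siRNA. Its second probe set gave -0.05 in Pfeiffer, and with the mean of both the change was 0.18 and was not called (adjusted p = 0.242). ZMAT3 fell by 0.63 ± 0.13, to 64.5% with an interval of 53.6% to 77.6% (adjusted p = 0.0029), from 9.60, 9.58 and 9.59 to 9.10, 8.81 and 8.96. Its 5 probe sets disagreed in Pfeiffer, with changes from -0.63 to 0.24. For 2 of them the siRNA arrays lay below the controls, and for 1 above. With the mean of all 5, ZMAT3 stood at -0.16 and was not called (adjusted p = 0.287).

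**Figure D4:**
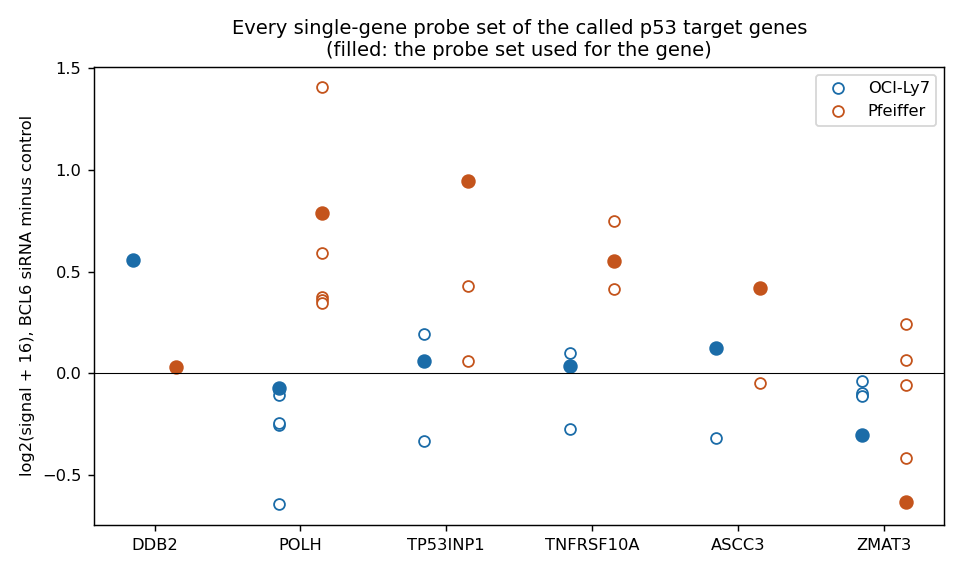
Change after BCL6 siRNA, in log2(signal + 16), of every single-gene probe set of the 6 called genes in each line, with the probe set that stands for the gene filled. The probe sets of POLH and TNFRSF10A lie above 0 throughout in Pfeiffer, whereas those of ASCC3 and ZMAT3 lie on both sides.

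The remaining 19 tested genes were not called in Pfeiffer, with changes from -0.50 (TP53I3) to 0.39 (AEN), and 15 of the 19 intervals lay within a 1.5-fold change. In the feedback loop, MDM2 read 10.11, 9.97 and 9.91 in controls and 9.93, 9.96 and 9.93 with siRNA, with an interval of -0.20 to 0.08 for its change. PPM1D (0.08 ± 0.08) and CCNG1 (-0.10 ± 0.06) were not called either. The other PPM1D probe set, dim in both lines, gave -0.59 with no overlap of the arrays. With the mean of its probe sets PPM1D stood at -0.26 (limma, adjusted p = 0.439), so its direction depends on the probe set. Of the repair genes, RRM2B stood at 0.12 ± 0.10, XPC at 0.22 ± 0.14 and DDB2 at 0.03 ± 0.08. DDB2 read 10.24, 10.12 and 10.30 in controls and 10.20, 10.21 and 10.34 with siRNA, so its groups overlapped in this line.

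Of the apoptosis genes, PMAIP1 stood at 0.12 ± 0.11 and TRIAP1 at 0.05 ± 0.06. PERP stood at 0.18 ± 0.31, with readings of 11.43, 11.40 and 11.49 in controls and 11.51, 11.54 and 11.80 with siRNA that did not overlap. Its SE is shared with OCI-Ly7, where the gene is dim and its 3 control readings spread over 4.17 to 5.94. TP53I3 also shares its SE with OCI-Ly7, where its siRNA readings spread over 5.65 to 7.05. It read 9.21, 9.08 and 9.14 in controls and 8.59, 8.74 and 8.61 with siRNA in Pfeiffer (-0.50 ± 0.27, adjusted p = 0.253). Fitted on the Pfeiffer arrays alone, TP53I3 was called lower (adjusted p = 0.0165). The metabolic genes TIGAR (-0.09 ± 0.09), SESN1 (-0.11 ± 0.16) and SESN2 (0.14 ± 0.11) were not called. The other SESN2 probe set gave 0.41, and its siRNA arrays lay above the controls. RPS27L stood at -0.13 ± 0.05 (adjusted p = 0.0809), FBXO22 at 0.25 ± 0.09 (adjusted p = 0.0741) and CMBL at 0.29 ± 0.15 (adjusted p = 0.235). Without Pfeiffer control replicate 3, FBXO22 (0.32, adjusted p = 0.0431) and CMBL (0.51, adjusted p = 0.0103) were called higher. The direction for CMBL again depends on the probe set, since its Pfeiffer change was -0.97 without shared probe sets and -0.28 with the mean of all (limma, adjusted p = 0.144 and 0.477). The change of -0.97 came from the same dim probe set as in the baseline.

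Arrays of the Pfeiffer groups did not overlap for 9 of the 24 genes, 5 upward and 4 downward, which is 37.5% beside 33% of all genes (16% upward and 16.9% downward). The median change over all 29 genes was 0.08, beside 0.01 over all 19775. The 5 untested genes had changes of -0.78 (EDA2R, a receptor of the TNF family) to 0.74 (the polo-like kinase PLK3) in Pfeiffer and of -0.71 (PLK3) to 0.92 (EDA2R) in OCI-Ly7. These readings came from dim probe sets whose arrays overlapped: PLK3 read 5.22, 6.17 and 6.56 in Pfeiffer controls and 7.52, 6.13 and 6.53 with siRNA. EDA2R read 6.41, 4.60 and 5.29 in OCI-Ly7 controls and 6.28, 6.63 and 6.15 with siRNA. PLK2, another polo-like kinase, and SPATA18, a protein of mitochondrial quality control, stayed at means of 4.30 to 5.32 in all groups.

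Whether the response differed between the lines was tested as the Pfeiffer change minus the OCI-Ly7 change. It did for 3 of the 24 genes, 2 with a positive difference (8.33%, beside 3.74% of all genes) and 1 with a negative one (4.17%, beside 5.06%). In either direction 12.5% were called, beside 8.8%. POLH differed by 0.86 ± 0.14 (limma, adjusted p = 0.00121), DDB2 by -0.53 ± 0.11 (adjusted p = 0.0093) and TP53INP1 by 0.89 ± 0.22 (adjusted p = 0.0209). For TP53INP1 the call was lost without OCI-Ly7 control replicate 3, OCI-Ly7 siRNA replicate 1 or 3, or Pfeiffer control replicate 3 (adjusted p = 0.0546 to 0.0591). Averaging its probe sets (0.51, adjusted p = 0.362) or fitting no trend (adjusted p = 0.0624) ended it as well. In OCI-Ly7 itself TP53INP1 read 12.92, 12.88 and 13.16 in controls and 12.94, 13.37 and 12.83 with siRNA. For TNFRSF10A (0.51, adjusted p = 0.0685), ASCC3 (0.30, adjusted p = 0.224) and ZMAT3 (-0.33, adjusted p = 0.289) a difference between the lines was not shown. On averaging its probe sets, TNFRSF10A was called (0.62, adjusted p = 0.0176). The fall of BCL6 differed too, by -0.54 (adjusted p = 0.00496), and the lines' responses cannot be told apart from the depth of knock-down.

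The regulators of p53 and further p53 targets, as lists of 24 and 40 genes, give the surroundings of these results. Of the regulators, 19 were tested. In OCI-Ly7, 1 rose, USP7, which removes ubiquitin from p53 and MDM2 (0.46 ± 0.10, limma, adjusted p = 0.0212). The 1 that fell was BCL6 itself, which makes 5.26% each way beside 1.69% and 0.991% of all genes. BCL6 is the target of the siRNA, so its fall was fixed by the design and the downward share shows nothing about the list. The USP7 call was lost without OCI-Ly7 control replicate 1 or 2 or siRNA replicate 1 or 3 (adjusted p = 0.0795 to 0.0908), and on averaging its probe sets (0.33, adjusted p = 0.223). In Pfeiffer, 2 rose and 2 fell. The checkpoint kinase gene CHEK1 rose (0.32 ± 0.08, adjusted p = 0.00953), as did CDKN2A, which encodes the MDM2 inhibitor ARF (0.32 ± 0.09, adjusted p = 0.0282). BCL6 fell, as did the acetyltransferase gene CREBBP (-0.21 ± 0.06, adjusted p = 0.0231). On averaging probe sets, CHEK1 (0.21, adjusted p = 0.179) and CREBBP (-0.61, adjusted p = 0.222) were not called, and CDKN2A turned to -0.19 (adjusted p = 0.651). The CDKN2A call also ended without Pfeiffer control replicate 1 or 3 or siRNA replicate 2 or 3 (adjusted p = 0.0734 to 0.108). That of CREBBP ended without Pfeiffer control replicate 2 or 3 or siRNA replicate 1 (adjusted p = 0.0548 to 0.0994). The shares called in Pfeiffer were 10.5% upward and 10.5% downward, beside 7.9% and 8.31% of all genes. The downward share again counts BCL6, the target of the siRNA, and apart from it only CREBBP was called lower.

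Of the further targets, 29 were tested. CDKN1A, which encodes the cell cycle inhibitor p21 and is the best known p53 target, was dim in OCI-Ly7 and bright in Pfeiffer. It read 5.42, 5.60 and 5.76 in OCI-Ly7 controls and 5.19, 6.03 and 5.46 with siRNA, and 9.23, 8.59 and 8.97 in Pfeiffer controls and 8.78, 9.05 and 8.67 with siRNA. Its groups overlapped in both lines, with changes of -0.03 and -0.10 ± 0.26 (limma, adjusted p = 0.972 and 0.855). BAX, the pore-forming effector of apoptosis, stood at -0.14 in OCI-Ly7 and at 0.34 in Pfeiffer (adjusted p = 0.632 and 0.0578). In Pfeiffer it was called higher without siRNA replicate 3 (0.46, adjusted p = 0.00908) and with array weights (0.40, adjusted p = 0.0174). The list had 1 gene called higher and 1 lower in OCI-Ly7 (3.45% each, beside 1.69% and 0.991% of all genes), and 5 higher and 4 lower in Pfeiffer (17.2% and 13.8%, beside 7.9% and 8.31%).

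In OCI-Ly7 these were the plasma cell regulator PRDM1 (0.47 ± 0.11, limma, adjusted p = 0.0294) and SAT1, an enzyme of polyamine breakdown (-0.26 ± 0.06, adjusted p = 0.0456). The PRDM1 call there ended without OCI-Ly7 control replicate 1 or siRNA replicate 2 or 3. That of SAT1 ended without any of 10 arrays, 5 from each line, with adjusted p up to 0.179. In Pfeiffer PRDM1 rose by 1.40 ± 0.11 (adjusted p = 3.94e-07), the lysosomal fucosidase gene FUCA1 by 0.47 ± 0.09 (adjusted p = 0.00162, but 0.206 on averaging its probe sets) and IER3 by 0.62 ± 0.13 (adjusted p = 0.00592). PCNA, the sliding clamp of DNA replication, rose by 0.21 ± 0.05 (adjusted p = 0.0066) and GADD45A, a growth arrest gene, by 0.23 ± 0.06 (adjusted p = 0.0171). The GADD45A call ended without Pfeiffer control replicate 3 or siRNA replicate 2 (adjusted p = 0.0608 and 0.0671). SUSD6 fell by 0.30 ± 0.06 (adjusted p = 0.00461) and kept its call in every alternative run. The other falls, of TNFAIP8 (-0.31), the caspase gene CASP6 (-0.46) and BLOC1S2 (-0.21), were nearer the threshold (limma, adjusted p = 0.0216 to 0.0414), and TNFAIP8 stood at 0.19 without probe sets marked as shared between transcripts. Each ended without any of several Pfeiffer arrays: control replicates 1 and 2 and siRNA replicates 1 and 3 for TNFAIP8, all but siRNA replicate 3 for CASP6, and control replicates 1 and 3 and siRNA replicates 1 and 2, along with OCI-Ly7 siRNA replicate 3, for BLOC1S2.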

How the data were processed

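Total RNA of 12 samples was measured on Affymetrix U133 Plus 2.0 arrays. The deposited values are log2 signals of 54675 probe sets, made by the authors with MAS5 and affy, per the submitters' processing notes, which name no version. The linear signals of every array had a mean of 500.0 once the outer 2% on each side were dropped, so no further scaling was applied. Dim probe sets are noisy under MAS5, since it takes mismatch signals off, and detection calls were not analysed here. Array medians lay between 71.3 and 85.0 in linear signal, and arrays of a group correlated at 0.986 to 0.991. The labels give no batch or scan date, so none was tested.

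The platform annotation of 41091 probe sets named a single gene, and RefSeq held the identifiers of 41037 of these and changed 0 symbols. Signals were turned into log2(signal + 16), and the brightest probe set stood for each of 19775 genes. The upper 0.5 of genes by the higher of the line means, 9888, was tested with limma (lmFit and eBayes with a trend) on all 12 arrays with 4 group means. Two-sided p-values were corrected across the 9888 genes by the Benjamini-Hochberg method and called at 0.05. Each SE is the moderated one from limma. The exact permutation test of 3 arrays against 3 cannot go below 0.1 and was not used. The fit was tested on simulated data. The number of arrays limits the precision.

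The members, the lists and the tests were chosen with earlier results of these data known. All members are accounted for. Array values are given for members called in a line or for the difference, for those next by lowest p, and for some chosen after their values were seen. Of the other lists, CDKN1A, BAX and GADD45A and up to 8 called genes per list and line are named. Alternatives were quantile normalization, pseudocounts of 1 and 64, no filter or the upper 0.25 of genes, other choices of probe set, no trend, array weights, each line alone, a replicate block and each array left out. R 4.3.3, limma 3.58.1, Python 3.11.15, numpy 2.4.6, pandas 2.3.3 and matplotlib 3.10.9 were used.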

Additional observations from a re-analysis of the deposited data

Results flagged for a closer look

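By the test of the difference itself, 3 p53 target genes responded differently to BCL6 siRNA in Pfeiffer and OCI-Ly7. The change in Pfeiffer minus that in OCI-Ly7 was 0.86 for POLH, -0.53 for DDB2 and 0.89 for TP53INP1 (limma, adjusted p = 0.00121, 0.0093 and 0.0209). The TP53INP1 call was lost in 6 of 22 alternatives, among them the mean of its probe sets (0.51, limma, adjusted p = 0.362), and its Pfeiffer controls were dim. BCL6 itself fell further in Pfeiffer, so the lines' responses cannot be told apart from the depth of knock-down.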

How the results depend on the processing

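In OCI-Ly7 the count of called p53 target genes was 1 without each array in turn and in the other settings, except that with the upper 0.25 of genes, which leaves 16 of them to be tested, it was 0, since DDB2 itself was filtered out. In Pfeiffer, against 5 called, it was 3 with the upper 0.25 of genes, 2 with the mean of all probe sets, and 5 to 7 on leaving out an array. The count for the difference between the lines was 2 to 3 and that for the baseline 20 to 21 on leaving out an array. The median change of all 29 genes in OCI-Ly7 was -0.060 with the mean of all probe sets, and -0.036 to 0.033 on leaving out an array, and in Pfeiffer 0.037 to 0.078. The baseline difference of CMBL turned to 2.33 without probe sets marked as shared between transcripts and to 0.51 with the mean of its probe sets. Apart from its brightest probe set, those of CMBL were dim in the controls of both lines. In Pfeiffer CDKN2A turned to -0.19 with the mean of its probe sets and TNFAIP8 to 0.19 without the shared ones. The causes were not tested. Same-numbered control and siRNA arrays of a line deviated with correlations of -0.080 to 0.083. No clear pairing by number was thus seen, but 3 arrays a group are too few to exclude it. With a replicate block the counts were 1, 5, 3 and 21, as without it, and SAT1 lost its call in OCI-Ly7 (limma, adjusted p = 0.0669). Of 2096 values of p53 target genes under the alternatives, 2057 kept their direction and side of the threshold, or moved by less than the spread between arrays. Some could not move, since leaving out an OCI-Ly7 array does not alter the size of a Pfeiffer change, and uncalled genes that stayed uncalled count as well. The share thus does not measure how stable the few calls were. In Pfeiffer, those of ASCC3, ZMAT3 and TP53INP1 ended on averaging probe sets.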
